A study of Mus musculus with 9 samples.

Results

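The genes described here are 29 mouse genes of cholesterol synthesis, its control by SREBP2, and the export and storage of sterols. They were listed by gene name, with earlier results of these data known, and all 29 were found among the 56691 genes counted. There were 8 enzymes of the early pathway, from acetyl-CoA to squalene, and 10 enzymes of the late pathway, from squalene to cholesterol. The other members were 4 genes of sterol sensing, 3 genes of sterol handling (Stard4, Tmem97 and Mylip) and 4 genes of efflux and storage. The 29 do not hold every step of the pathway.

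RNA was sequenced from primary mouse hepatocytes in culture, with 3 libraries from cells given the solvent DMSO, 3 from cells given Bobcat339 and 3 from cells given 4-octyl itaconate (4OI). Bobcat339 blocks the TET enzymes, which remove DNA methylation by oxidation, and 4OI is a cell-permeable ester of the metabolite itaconate. After 4 h of attachment the cells of all groups were kept in fresh medium for 24 h. The treatment protocol common to all libraries also names Remodelin hydrobromide, given or not, without saying which libraries received it. The labels give no genotype, strain, age, dose or treatment time. The study's methods do name male C57BL/6 mice, with their age, and describe hepatocytes taken by collagenase perfusion from livers after partial hepatectomy and given Bobcat339 at a stated dose for 24 h. Whether these libraries came from that experiment is not stated. The DMSO titles carry hepatocyte numbers 1 to 3 and all 4OI titles carry hepatocyte number 1. No label says that the replicates of a group were separate animals or cultures. The p-values therefore reflect no more than the spread between the libraries at hand, which may be technical.

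Cells make cholesterol from acetyl-CoA through mevalonate, isoprenoid diphosphates, squalene and lanosterol, and the liver is a main site of this synthesis. When the membrane of the endoplasmic reticulum is poor in sterol, SCAP escorts the transcription factor SREBP2 to the Golgi, where it is cut and released to switch on the genes of synthesis. When sterol is plentiful, INSIG proteins hold SCAP back, the oxysterol-sensing LXR receptors switch on export genes, and SOAT enzymes esterify cholesterol for storage.

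SREBP2 is known to act at promoters together with the factor NF-Y, so the promoter windows of the members were searched for the letters of their sites. RefSeq windows from 250 bases before to 50 bases after the gene start (GRCm38.p6) were at hand for 23 of the 29 members, in 29 windows. No window was at hand for Sqle, Fdps, Fdft1, Stard4, Abcg1 or Soat2, so these genes were not searched. On either strand, CCAAT, the box bound by NF-Y, stood in 1 window each of 20 members, and in 37.4% of all 32851 windows of this length. The core of the sterol regulatory element, TCACNCCAC, stood in the window of 1 member, Hmgcs1, and in 1.24% of all windows. The third pattern, ATCACNTGA, stood in no member's window and in 0.922% of all windows. These matches describe the letters only. The windows below belong to Hmgcs1, which holds the sterol regulatory element core, and to Idi1, Msmo1 and Insig1, the members with the largest rises with Bobcat339. They lie at chr13:119690101-119690400 (plus strand), chr13:8885356-8885655 (plus strand), chr8:64733529-64733828 (minus strand) and chr5:28071162-28071461 (plus strand) in the same order. Capitals mark CCAAT, its reverse complement ATTGG, and the sterol regulatory element core.
Hmgcs1: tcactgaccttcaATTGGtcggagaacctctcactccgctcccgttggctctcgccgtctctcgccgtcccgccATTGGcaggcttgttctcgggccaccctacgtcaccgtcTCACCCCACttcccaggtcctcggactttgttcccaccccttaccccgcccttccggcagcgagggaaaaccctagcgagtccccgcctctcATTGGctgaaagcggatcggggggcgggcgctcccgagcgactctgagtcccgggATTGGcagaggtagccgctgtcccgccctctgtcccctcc
Idi1: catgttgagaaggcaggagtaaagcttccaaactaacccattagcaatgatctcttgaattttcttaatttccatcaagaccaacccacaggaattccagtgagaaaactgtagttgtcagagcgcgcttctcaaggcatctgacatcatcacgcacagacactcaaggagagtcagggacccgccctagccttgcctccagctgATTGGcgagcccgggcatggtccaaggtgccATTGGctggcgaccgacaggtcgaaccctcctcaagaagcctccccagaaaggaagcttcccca
Msmo1: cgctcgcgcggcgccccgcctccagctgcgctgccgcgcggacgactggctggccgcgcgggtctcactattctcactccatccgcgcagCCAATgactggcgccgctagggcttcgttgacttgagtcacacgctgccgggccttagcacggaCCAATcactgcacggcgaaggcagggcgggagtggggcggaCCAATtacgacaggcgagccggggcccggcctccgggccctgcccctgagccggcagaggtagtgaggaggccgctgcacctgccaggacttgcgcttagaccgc
Insig1: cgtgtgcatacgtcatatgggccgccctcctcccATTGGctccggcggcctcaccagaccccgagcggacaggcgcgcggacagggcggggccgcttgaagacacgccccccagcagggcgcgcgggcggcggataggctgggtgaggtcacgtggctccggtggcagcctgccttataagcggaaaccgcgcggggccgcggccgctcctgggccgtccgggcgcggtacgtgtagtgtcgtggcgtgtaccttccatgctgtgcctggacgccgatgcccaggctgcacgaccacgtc

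Library totals ran from 67434312 to 83902788 deposited counts, of which about 4 were taken as 1 read pair. The hepatocyte label was checked on 10 marker genes, among them albumin (Alb). Their summed level was 31112 to 31939 CPM (counts scaled to a common library size) with DMSO, 27713 to 29891 CPM with Bobcat339 and 2014 to 2226 CPM with 4OI. The sum of 10 Kupffer cell and macrophage markers ran from 625 to 687 CPM with DMSO, from 298 to 336 CPM with Bobcat339 and from 4949 to 5103 CPM with 4OI. For 8 endothelial markers the sums were 103 to 115, 92.7 to 111 and 2996 to 3163 CPM in the same order. None of the markers in these 3 lists was without counts in a whole group. In bulk samples such as these, fewer cells of a type and less RNA per cell cannot be told apart. Markers of intestinal epithelium were also detected, at summed levels of 156 to 181 CPM with DMSO, 33.0 to 136 CPM with Bobcat339 and 1.26 to 11.4 CPM with 4OI. The share of counts from mitochondrial genes was 4.43% to 5.59%, 2.36% to 3.12% and 8.37% to 8.98%.

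All 29 members passed the filter on low counts. Per kilobase of exon, the highest mean level with DMSO was that of Tmem97 at 83.6 CPM per kb, followed by Cyp51 at 43.3, Fdps at 40.2, Insig2 at 33.5 and Fdft1 at 31.7 CPM per kb. The lowest were Mylip at 0.482, Soat1 at 0.536 and Abcg1 at 0.892 CPM per kb. With Bobcat339 Insig1 came next to Tmem97 at the top, with 76.9 against 98.2 CPM per kb. With 4OI the order at the top was another one, Soat1 at 22.6 and Abcg1 at 17.0 CPM per kb, ahead of Scap at 15.8 and Srebf2 at 14.1 CPM per kb. The members that were lowest per kilobase with DMSO thus included those that were highest with 4OI. Exon length counted all annotated exons of a gene, which need not be the transcript the cells use.

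**Figure D1:**
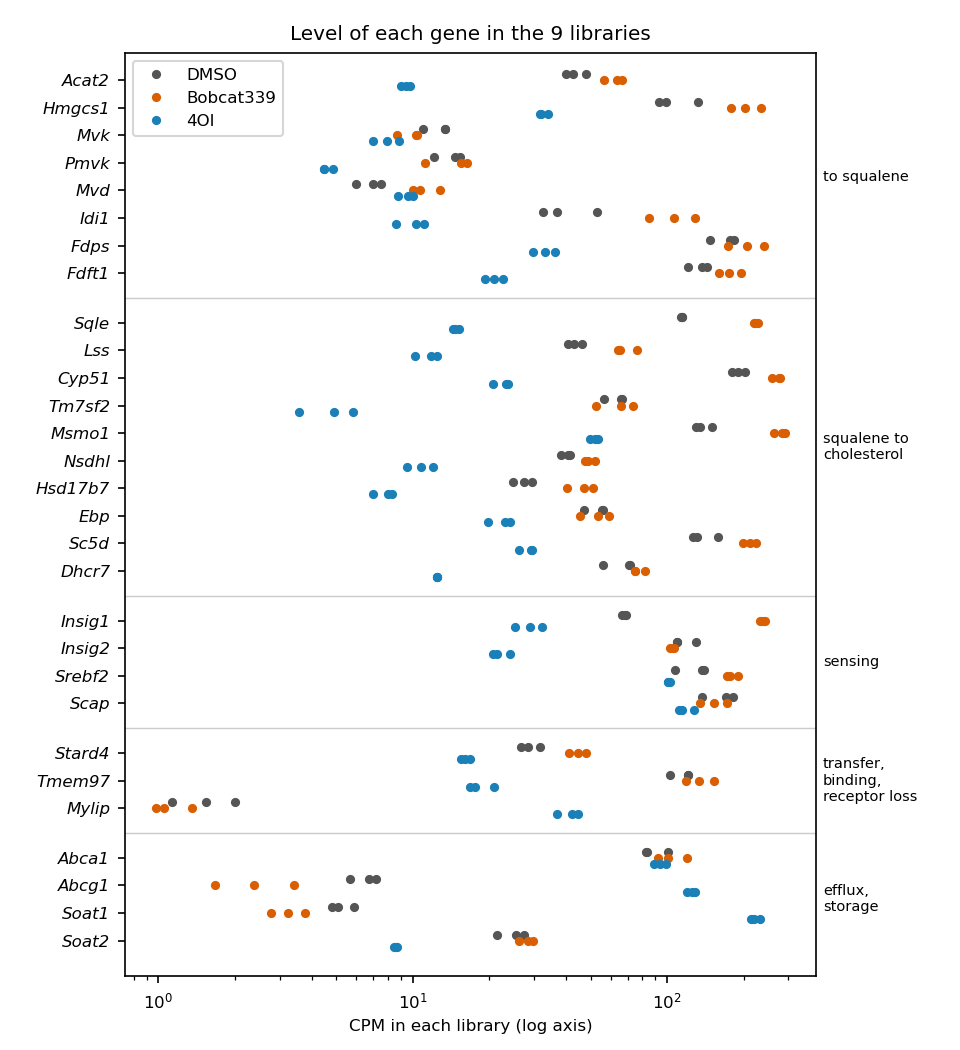
Level of the 29 genes in CPM (horizontal log axis), with 1 point for each of the 9 libraries, coloured by group and ordered by role. With 4OI the points of most enzymes lie to the left of both other groups, while Mylip, Abcg1 and Soat1 lie far to the right of them.

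The comparison of Bobcat339 with DMSO asks how the sterol genes stood in cells given the TET inhibitor. TET activity was not measured in these libraries. With Bobcat339, 14 members rose, 2 fell (Abcg1 and Soat1) and 13 were not called at an adjusted p under 0.05 (edgeR quasi-likelihood test, Benjamini-Hochberg adjustment over 18379 genes). Of all genes tested, 20.7% were called, 11.6% higher and 9.06% lower. Without DMSO replicate 1 the share called was 12.5%, with 13 members higher and 2 lower. Without Bobcat339 replicate 2 it was 12.9%, with the same counts of members. The share was larger, 27.8%, with values divided by 4, and 28.6% with a minimum of 1 CPM in 3 libraries. In both of these settings 15 members were higher and 2 lower. The median log2 fold change was 0.30 over the members and -0.014 over all genes tested. The rises were in the enzymes, in Insig1 and Srebf2 and in Stard4: 11 of the 18 enzymes rose and 0 fell, with a median log2 fold change of 0.50. The CPM ranges of the libraries did not overlap for 16 members higher and 4 lower with Bobcat339, against 18.0% and 18.8% of all genes tested. Of all called genes, 56.2% were higher, a share that was 46.1% with RLE scaling and 45.1% with DESeq2, where 13 and 14 members rose and 2 and 3 fell.

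The sum of the enzymes separated the groups as well. Over the 18 enzymes the summed level was 1384, 1409 and 1416 CPM in the DMSO libraries, 2128, 2147 and 2125 CPM in the Bobcat339 libraries and 315, 317 and 312 CPM in the 4OI libraries. The groups stood clearly apart and the libraries of each lay close to each other. The mean of the sum was 1.52 times as high with Bobcat339 as with DMSO, and 4.46 times as low with 4OI. Among the early enzymes 5 of 8 rose with Bobcat339 (median log2 fold change 0.46), and among the late enzymes 6 of 10 (median 0.55), against 11.6% of all genes tested.

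The comparison of 4OI with DMSO asks the same of the itaconate ester. With 4OI, 24 members fell, 4 rose (Mvd, Mylip, Abcg1 and Soat1) and Abca1 was not called, with a median log2 fold change of -1.73 over the members and 0.083 over all genes. Of all genes tested, 63.7% were called, 33.3% higher and 30.4% lower. The share called ran from 39.2% with no filter on low counts to 75.8% with a minimum of 1 CPM in 3 libraries. The ranges of the libraries did not overlap for the same counts, 24 members lower and 4 higher, against 33.8% and 37.7% of all genes. All 10 late enzymes and 7 of 8 early enzymes fell, and the median over the 18 enzymes was -1.97. All 10 hepatocyte markers fell too, by log2 fold changes from -5.88 to -2.495 with a median of -3.26, and their part in the members' falls was not tested. Of the members, 1 (Tm7sf2) fell by more than that median and 28 lay above it. All 10 macrophage markers rose (median 3.35), as did all 8 endothelial markers (median 4.59), and their part in the rises of Mylip, Abcg1 and Soat1 was not tested.

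**Figure D2:**
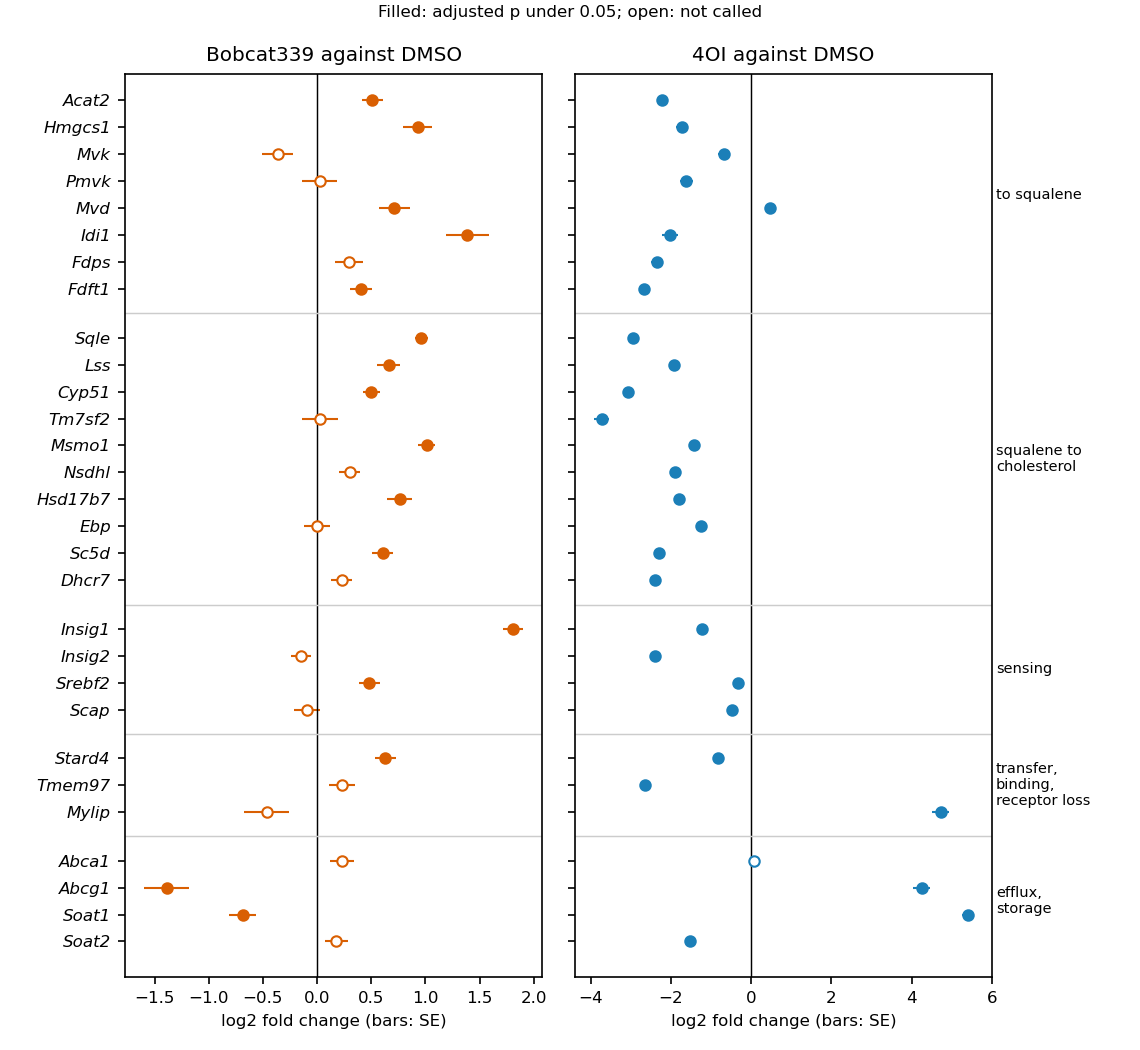
Log2 fold change of each gene (points, with bars for the SE of the fit) for Bobcat339 against DMSO and 4OI against DMSO, ordered by role, each panel on its own horizontal scale. Insig1 with 1.81 is farthest right with Bobcat339, and Soat1 with 5.40 with 4OI, where Tm7sf2 with -3.73 is farthest left.

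Between the treated groups, 4OI against Bobcat339, 23 members were lower with 4OI, 3 were higher (Mylip, Abcg1 and Soat1) and 3 were not called (Mvk, Mvd and Abca1). Of all genes, 62.2% were called, 30.9% higher and 31.3% lower, and the median log2 fold change was -2.43 over the members and -0.00083 over all genes tested. With scaling by library size alone the median over all genes shifted to 0.12, and 22 members were lower and 3 higher. The ranges did not overlap for 23 members lower and 3 higher, against 34.1% and 34.8% of all genes. In the same comparison all 10 hepatocyte markers were lower with 4OI (median -3.22), and 17 of the 29 members lay below the hepatocyte marker that differed least. All 10 macrophage markers (median 5.50) and all 8 endothelial markers (median 4.94) were higher. The part of these markers in the members' differences was not tested. The comparisons of each treatment with DMSO share the same 3 DMSO libraries, so they are not independent of each other.

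The early pathway opens with Acat2, which joins acetyl-CoA units to acetoacetyl-CoA, and Hmgcs1, which makes HMG-CoA from it. Acat2 stood at 48.2, 42.7 and 40.1 CPM with DMSO, 66.3, 63.4 and 56.5 CPM with Bobcat339 and 9.73, 9.41 and 8.95 CPM with 4OI. It rose 1.42-fold with Bobcat339 (log2 fold change 0.51, SE 0.097, adjusted p = 0.00423) and fell 4.66-fold with 4OI (log2 fold change -2.22, SE 0.10, adjusted p = 1.14e-08), with no overlap between any groups. Mouse Acat3, a close copy of Acat2, was at mean levels of 60.9, 55.9 and 2.91 CPM with DMSO, Bobcat339 and 4OI, and how reads were divided between the copies is not given in the sources used here. Hmgcs1 was at 98.6, 92.7 and 132 CPM with DMSO, 179, 203 and 233 CPM with Bobcat339 and 31.7, 31.9 and 33.9 CPM with 4OI. Its library 3 was the highest of each group, and the groups did not overlap. The change with Bobcat339 was 1.90-fold upward (log2 fold change 0.93, SE 0.14, adjusted p = 0.000948) and the change with 4OI 3.31-fold downward (log2 fold change -1.73, SE 0.14, adjusted p = 1.16e-06).

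The kinases that phosphorylate mevalonate in succession, Mvk and Pmvk, were not called with Bobcat339. Mvk ranged over 10.95 to 13.4 CPM with DMSO, 8.68 to 10.4 CPM with Bobcat339 and 6.96 to 8.84 CPM with 4OI. Its values with Bobcat339 lay just under those with DMSO (log2 fold change -0.36, SE 0.14, adjusted p = 0.109), and with DESeq2 the difference passed (-0.43, adjusted p = 0.0388). Pmvk ranged over 12.2 to 15.3 CPM with DMSO, 11.2 to 16.3 CPM with Bobcat339 and 4.46 to 4.83 CPM with 4OI, and its DMSO and Bobcat339 libraries overlapped (log2 fold change 0.023, SE 0.16, adjusted p = 0.954). With 4OI Mvk fell 1.59-fold (log2 fold change -0.67, SE 0.14, adjusted p = 0.00201), the smallest fall among the enzymes, and Pmvk fell 3.07-fold (log2 fold change -1.62, SE 0.17, adjusted p = 7.5e-06).

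Mvd, the decarboxylase that makes isopentenyl diphosphate, was the single enzyme higher with both treatments. Its level was 7.48, 5.97 and 6.95 CPM with DMSO, 12.8, 10.6 and 10.0 CPM with Bobcat339 and 8.77, 10.0 and 9.58 CPM with 4OI. Every treated library lay above every DMSO library, and the treated groups overlapped each other. Mvd rose 1.64-fold with Bobcat339 (log2 fold change 0.71, SE 0.14, adjusted p = 0.00603) and 1.39-fold with 4OI (log2 fold change 0.48, SE 0.14, adjusted p = 0.0141). The call with 4OI was lost with no filter on low counts (adjusted p = 0.0642), with a 1.2-fold minimum (0.0535), without DMSO replicate 2 (0.0658) and without 4OI replicate 2 (0.0504). Against Bobcat339, 4OI gave a log2 fold change of -0.23 (adjusted p = 0.181).

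Idi1, the isomerase that turns isopentenyl into dimethylallyl diphosphate, had the largest rise of the enzymes with Bobcat339. It measured 32.6, 36.8 and 53.2 CPM with DMSO, 85.2, 107 and 129 CPM with Bobcat339 and 8.56, 10.3 and 11.1 CPM with 4OI. The libraries of a group were spread more widely than for most members, yet all 3 Bobcat339 libraries lay above all 3 DMSO libraries. The rise was 2.61-fold (log2 fold change 1.39, SE 0.20, adjusted p = 0.000783) and the fall with 4OI 4.09-fold (log2 fold change -2.03, SE 0.20, adjusted p = 6.88e-06). In 4OI against Bobcat339 Idi1 was 10.7-fold lower with 4OI (log2 fold change -3.42, SE 0.21, adjusted p = 1.37e-07).

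Fdps, which joins the isoprenoid units to farnesyl diphosphate, ranged over 147 to 184 CPM with DMSO, 174 to 240.1 CPM with Bobcat339 and 29.8 to 36.2 CPM with 4OI. Its DMSO and Bobcat339 libraries overlapped (log2 fold change 0.29, SE 0.13, adjusted p = 0.149), and with 4OI it fell 5.12-fold (log2 fold change -2.36, SE 0.14, adjusted p = 7.04e-08). Fdft1, squalene synthase, commits farnesyl diphosphate to sterols and stood at 138, 143 and 121 CPM with DMSO, 196, 176 and 159 CPM with Bobcat339 and 20.9, 19.2 and 22.6 CPM with 4OI. The groups did not overlap, though the lowest Bobcat339 library was near the highest DMSO library. Fdft1 rose 1.32-fold with Bobcat339 (log2 fold change 0.40, SE 0.10, adjusted p = 0.0177), a call lost with RLE scaling (adjusted p = 0.0513), with a 1.2-fold minimum (0.172), without DMSO replicate 1 (0.0522) and without Bobcat339 replicate 2 (0.0579). With 4OI it fell 6.41-fold (log2 fold change -2.68, SE 0.11, adjusted p = 4.14e-09). In the GENCODE annotation 774 exon bases of Fdft1, 18.3% of its exon length, overlap Ctsb on the opposite strand, whose mean level was 1575, 1522 and 3986 CPM with DMSO, Bobcat339 and 4OI. Whether counting used the strand is not given in the sources used here, so the value of Fdft1 is uncertain to that extent.

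The late pathway begins with Sqle, the epoxidase that adds the first oxygen to squalene and a known control point. Sqle was at 113, 114 and 114 CPM with DMSO, 219, 227 and 221 CPM with Bobcat339 and 15.1, 14.4 and 14.7 CPM with 4OI. No other member varied so little among the DMSO libraries, with a coefficient of variation of 0.682%, and the groups lay far apart. Sqle rose 1.95-fold with Bobcat339 (log2 fold change 0.96, SE 0.063, adjusted p = 5.89e-06) and fell 7.72-fold with 4OI (log2 fold change -2.95, SE 0.068, adjusted p = 1.53e-10). Between the treated groups the difference was 15.1-fold, lower with 4OI (log2 fold change -3.91, SE 0.07, adjusted p = 5.84e-11), the largest fall of any member there. Set against albumin as a hepatocyte transcript, 1000 times the ratio of Sqle to Alb in CPM per kb was 1.95, 1.96 and 1.95 with DMSO, 4.50, 4.03 and 4.00 with Bobcat339 and 4.62, 4.57 and 4.20 with 4OI. On this scale the 4OI libraries overlapped the Bobcat339 libraries (exact permutation test, two-sided p = 0.2) and both lay above DMSO (p = 0.1 each, the smallest that 3 against 3 allows). The direction with 4OI depends on the marker set beside Sqle. Alb fell by 4.14 on the log2 scale and is 1 of 7 among the 10 hepatocyte markers that fell by more than Sqle, while Cps1 (log2 fold change -2.52), Tat (-2.495) and Fgb (-2.86) fell by less.

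Lss closes the ring system to lanosterol, and Cyp51 removes a methyl group from it. Lss measured 43.0, 46.3 and 40.7 CPM with DMSO, 76.4, 65.3 and 64.1 CPM with Bobcat339 and 11.8, 10.2 and 12.5 CPM with 4OI. With no overlap, Lss rose 1.58-fold with Bobcat339 (log2 fold change 0.66, SE 0.11, adjusted p = 0.00151) and fell 3.78-fold with 4OI (log2 fold change -1.92, SE 0.11, adjusted p = 6.68e-08). Cyp51 measured 180.2, 191 and 202 CPM with DMSO, 258, 278 and 275 CPM with Bobcat339 and 20.7, 23.8 and 23.2 CPM with 4OI. It too was separated in every group, with a 1.42-fold rise (log2 fold change 0.50, SE 0.079, adjusted p = 0.00143) and an 8.46-fold fall (log2 fold change -3.08, SE 0.086, adjusted p = 3.47e-10), the largest among the enzymes with 4OI after Tm7sf2.

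Tm7sf2, a sterol reductase that follows Cyp51, fell the most of all members with 4OI. It was at 65.9, 66.5 and 56.4 CPM with DMSO, 73.3, 65.9 and 52.7 CPM with Bobcat339 and 4.90, 5.82 and 3.57 CPM with 4OI. DMSO and Bobcat339 libraries were intermixed (log2 fold change 0.023, SE 0.17, adjusted p = 0.957), while each 4OI library was far below them, 13.2-fold lower on average (log2 fold change -3.73, SE 0.19, adjusted p = 2.54e-08). Tm7sf2 shares 532 exon bases with its neighbour Vps51 on the same strand, at mean levels of 40.0, 35.9 and 30.9 CPM, so its counts are uncertain to that extent.

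The enzymes that strip methyl groups from the sterol ring are Msmo1, Nsdhl and Hsd17b7. Msmo1, the oxidase that starts this, stood at 129.8, 135 and 150.3 CPM with DMSO, 264, 283 and 289.6 CPM with Bobcat339 and 53.4, 49.7 and 51.9 CPM with 4OI. Every Bobcat339 library lay far above every DMSO library. Msmo1 rose 2.02-fold (log2 fold change 1.01, SE 0.079, adjusted p = 1.67e-05) and fell 2.68-fold with 4OI (log2 fold change -1.42, SE 0.08, adjusted p = 5.39e-08). Nsdhl, the decarboxylating dehydrogenase, ranged over 38.2 to 41.5 CPM with DMSO, 47.4 to 51.8 CPM with Bobcat339 and 9.50 to 12.02 CPM with 4OI. Its Bobcat339 libraries lay above all DMSO libraries without passing the test (log2 fold change 0.30, SE 0.098, adjusted p = 0.0554). It passed with a filter at 1 CPM in 3 libraries (adjusted p = 0.0454), with values divided by 4 (0.0393) and without 4OI replicate 1 (0.0482) or 2 (0.044). With 4OI Nsdhl fell 3.72-fold (log2 fold change -1.90, SE 0.10, adjusted p = 4.08e-08). Hsd17b7, the ketoreductase of this sequence, was at 27.5, 24.7 and 29.4 CPM with DMSO, 40.4, 47.0 and 51.0 CPM with Bobcat339 and 8.0, 6.96 and 8.32 CPM with 4OI. It rose 1.70-fold with Bobcat339 (log2 fold change 0.76, SE 0.12, adjusted p = 0.00124) and fell 3.5-fold with 4OI (log2 fold change -1.81, SE 0.12, adjusted p = 2.54e-07), with no overlap.

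The last steps move and reduce double bonds. The isomerase Ebp ranged over 47.1 to 55.9 CPM with DMSO, 45.4 to 59.3 CPM with Bobcat339 and 19.7 to 24.1 CPM with 4OI, with overlap between DMSO and Bobcat339 (log2 fold change -0.0035, SE 0.12, adjusted p = 0.995). It fell 2.37-fold with 4OI (log2 fold change -1.24, SE 0.12, adjusted p = 6.2e-06). Sc5d, a desaturase, was at 127, 131 and 159 CPM with DMSO, 199, 213 and 223 CPM with Bobcat339 and 29.2, 29.4 and 26.1 CPM with 4OI. Its groups did not overlap, and it rose 1.52-fold with Bobcat339 (log2 fold change 0.60, SE 0.098, adjusted p = 0.00167) and fell 4.92-fold with 4OI (log2 fold change -2.30, SE 0.10, adjusted p = 9.26e-09). Dhcr7, a reductase at the end of the pathway, was at 71.4, 70.6 and 56.2 CPM with DMSO, 82.2, 74.8 and 74.9 CPM with Bobcat339 and 12.4, 12.4 and 12.4 CPM with 4OI. Its Bobcat339 libraries lay above the DMSO libraries without passing the test (log2 fold change 0.23, SE 0.099, adjusted p = 0.143), and with 4OI it fell 5.32-fold (log2 fold change -2.41, SE 0.10, adjusted p = 7.35e-09).

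Among the genes of sterol sensing, 2 of 4 rose with Bobcat339 and all 4 fell with 4OI. Of all genes tested, 11.6% were higher with Bobcat339 and 30.4% lower with 4OI, and 4 genes are few to set against these shares. Insig1, a retention protein for SCAP that is itself a target of SREBP2, stood at 66.3, 69.0 and 68.2 CPM with DMSO, 231, 243 and 239 CPM with Bobcat339 and 25.3, 28.9 and 32.3 CPM with 4OI. Its 3 groups were far apart, and the DMSO libraries, like the Bobcat339 libraries, lay close together. Insig1 had the largest rise of the members with Bobcat339, 3.51-fold (log2 fold change 1.81, SE 0.091, adjusted p = 1.55e-06), and fell 2.35-fold with 4OI (log2 fold change -1.23, SE 0.091, adjusted p = 5.01e-07). Its relative Insig2 was at 109.8, 109 and 129.6 CPM with DMSO, 106, 106 and 103 CPM with Bobcat339 and 20.7, 24.2 and 21.4 CPM with 4OI. The Bobcat339 libraries lay below the DMSO libraries by less than the test could call (log2 fold change -0.15, SE 0.091, adjusted p = 0.309), and with 4OI Insig2 fell 5.27-fold (log2 fold change -2.40, SE 0.096, adjusted p = 3.89e-09).

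Srebf2, which encodes SREBP2, was at 139.7, 138 and 107 CPM with DMSO, 189.9, 177 and 172 CPM with Bobcat339 and 103, 101 and 101 CPM with 4OI. Its groups did not overlap, but the lowest DMSO library stood near the 4OI libraries. Srebf2 rose 1.40-fold with Bobcat339 (log2 fold change 0.48, SE 0.10, adjusted p = 0.00677), although not with a 1.2-fold minimum (adjusted p = 0.0608). It fell 1.26-fold with 4OI (log2 fold change -0.34, SE 0.10, adjusted p = 0.0127), a call lost with a 1.2-fold minimum (0.142) and without DMSO replicate 1 (0.056) or 2 (0.0511). Scap, the escort, measured 171, 181 and 137 CPM with DMSO, 172, 152 and 134 CPM with Bobcat339 and 111, 115 and 127 CPM with 4OI. DMSO and Bobcat339 overlapped (log2 fold change -0.094, SE 0.12, adjusted p = 0.666), and with 4OI Scap fell 1.39-fold (log2 fold change -0.47, SE 0.12, adjusted p = 0.00571). In 4OI against Bobcat339, Scap was lower with 4OI (log2 fold change -0.38, SE 0.12, adjusted p = 0.0191), which did not pass with library size scaling (adjusted p = 0.0846), with a 1.2-fold minimum (0.114), without Bobcat339 replicate 1 (0.0666) or without 4OI replicate 1 (0.0659) or 2 (0.0579). The falls of Srebf2 and Scap with 4OI were smaller in size than that of every enzyme that fell.

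Of the handling genes, Stard4 carries sterol between membranes, and Tmem97 is a sterol-binding protein of the endoplasmic reticulum. Stard4 was at 28.3, 26.6 and 31.6 CPM with DMSO, 44.6, 41.2 and 47.9 CPM with Bobcat339 and 16.1, 16.7 and 15.5 CPM with 4OI. With no overlap between groups, it rose 1.54-fold with Bobcat339 (log2 fold change 0.63, SE 0.097, adjusted p = 0.00124) and fell 1.79-fold with 4OI (log2 fold change -0.84, SE 0.098, adjusted p = 2.2e-05). Tmem97 ranged over 103 to 121 CPM with DMSO, 119 to 153 CPM with Bobcat339 and 16.7 to 20.9 CPM with 4OI, with overlap between DMSO and Bobcat339 (log2 fold change 0.23, SE 0.12, adjusted p = 0.214) and a 6.25-fold fall with 4OI (log2 fold change -2.64, SE 0.13, adjusted p = 1.55e-08).

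Mylip encodes a ubiquitin ligase that sends lipoprotein receptors to degradation and is switched on by LXR. It was at 1.13, 1.54 and 2.01 CPM with DMSO, 0.980, 1.35 and 1.05 CPM with Bobcat339 and 42.3, 44.5 and 37.0 CPM with 4OI, with 76 to 134 deposited counts in the DMSO libraries. The DMSO and Bobcat339 libraries overlapped (log2 fold change -0.47, SE 0.21, adjusted p = 0.158) and every 4OI library was far higher. The rise with 4OI was 26.5-fold (log2 fold change 4.73, SE 0.22, adjusted p = 1.08e-08).

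Abca1 and Abcg1 are the pumps that load cholesterol onto lipoprotein particles outside the cell, and both are LXR targets. Abca1 was at 82.6, 83.4 and 101 CPM with DMSO, 92.3, 100.4 and 120.1 CPM with Bobcat339 and 88.6, 98.8 and 94.1 CPM with 4OI. The 3 groups overlapped, and Abca1 was called neither with Bobcat339 (log2 fold change 0.23, SE 0.11, adjusted p = 0.2) nor with 4OI (log2 fold change 0.076, SE 0.11, adjusted p = 0.579). Its fitted change with 4OI was below 0 with no filter on low counts (-0.023) and with only the 6 libraries compared (-0.0052). Abcg1 was at 6.75, 7.14 and 5.65 CPM with DMSO, 1.66, 3.41 and 2.38 CPM with Bobcat339 and 125, 119 and 129 CPM with 4OI. The Bobcat339 libraries were the lowest and the 4OI libraries the highest, without overlap. Abcg1 fell 2.62-fold with Bobcat339 (log2 fold change -1.39, SE 0.21, adjusted p = 0.000979) and rose 19.1-fold with 4OI (log2 fold change 4.25, SE 0.21, adjusted p = 2.12e-08).

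Soat1 and Soat2 esterify cholesterol for storage. Soat2 is known to be found in hepatocytes, though not in them alone, and Soat1 is found in many cells, macrophages among them. Soat1 stood at 5.89, 5.07 and 4.79 CPM with DMSO, 2.77, 3.22 and 3.78 CPM with Bobcat339 and 213, 232 and 219 CPM with 4OI. Its order was that of Abcg1, lowest with Bobcat339 and highest with 4OI in every library. Soat1 fell 1.61-fold with Bobcat339 (log2 fold change -0.69, SE 0.12, adjusted p = 0.00275) and rose 42.1-fold with 4OI (log2 fold change 5.40, SE 0.13, adjusted p = 1.85e-10), the largest change of any member in that comparison. Soat2 was at 27.4, 25.4 and 21.5 CPM with DMSO, 28.4, 29.6 and 26.1 CPM with Bobcat339 and 8.40, 8.62 and 8.65 CPM with 4OI. It overlapped between DMSO and Bobcat339 (log2 fold change 0.18, SE 0.11, adjusted p = 0.309) and fell 2.89-fold with 4OI (log2 fold change -1.53, SE 0.11, adjusted p = 5.3e-07). Beside the falls of Abcg1 and Soat1 with Bobcat339, 9 of the 10 macrophage markers fell (median log2 fold change -2.30), and their part in these falls was not tested.

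**Figure D3:**
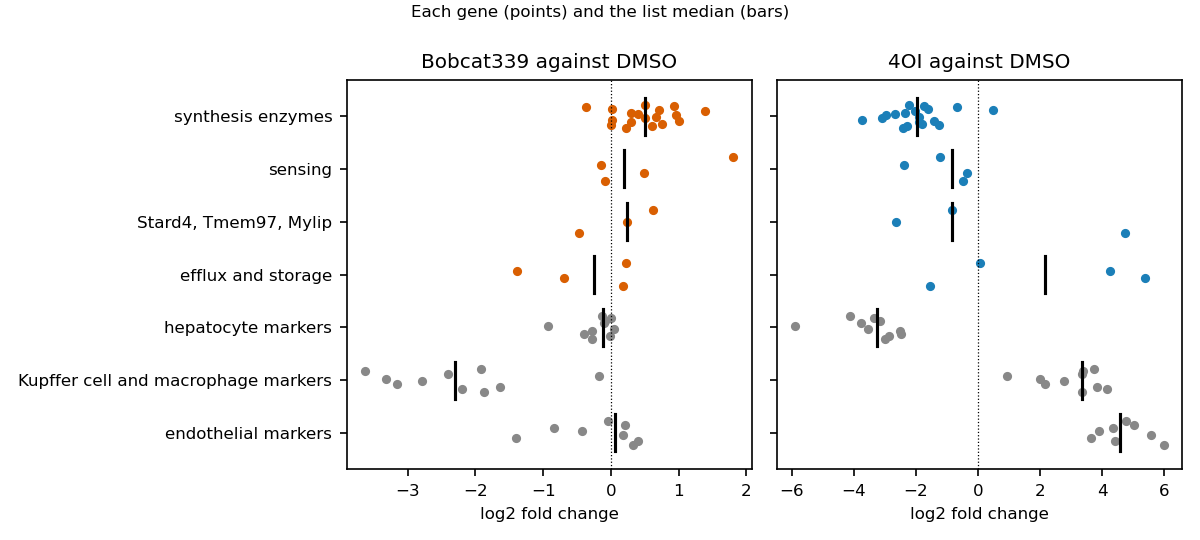
Log2 fold change of the members by role and of 3 marker lists for Bobcat339 against DMSO and 4OI against DMSO, each panel on its own horizontal scale, with 1 point per gene and a bar at the list median. Macrophage markers have a median of -2.30 with Bobcat339 and 3.35 with 4OI, and hepatocyte markers -0.12 and -3.26, beside 0.50 and -1.97 for the 18 enzymes.

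The balance within pairs of related genes differed between the groups. On the scale of CPM per kb, the ratio of Insig1 to Insig2 was 0.678, 0.710 and 0.591 with DMSO, 2.45, 2.58 and 2.61 with Bobcat339 and 1.38, 1.34 and 1.70 with 4OI. Insig2 thus led with DMSO and Insig1 led in every treated library. The ratio of Soat2 to Soat1 was 20.6, 22.2 and 19.8 with DMSO, 45.4, 40.6 and 30.5 with Bobcat339 and 0.174, 0.165 and 0.175 with 4OI, so the more abundant of the pair per kilobase differed between 4OI and the other groups. The ratio of Abcg1 to Abca1 was 0.116, 0.122 and 0.0795 with DMSO, 0.0256, 0.0483 and 0.0281 with Bobcat339 and 2.00, 1.71 and 1.95 with 4OI. Each pair of groups was fully separated in these 3 ratios (exact permutation test, two-sided p = 0.1 each, the smallest possible). Srebf2 over Scap was 0.846, 0.787 and 0.809 with DMSO, 1.14, 1.202 and 1.32 with Bobcat339 and 0.957, 0.912 and 0.820 with 4OI. Here Bobcat339 stood above both other groups (exact p = 0.1 each), and DMSO and 4OI overlapped (exact p = 0.2). Over the 18 comparisons of 6 ratios that were computed, the adjusted p was 0.113 for the separated pairs of groups.

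**Figure D4:**
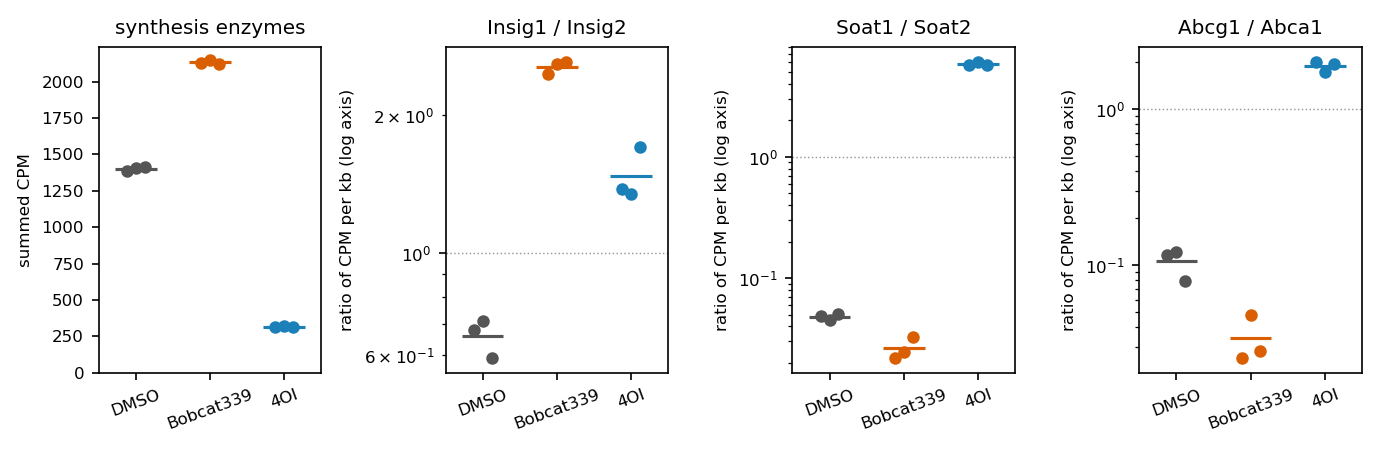
Summed CPM of the 18 synthesis enzymes (linear axis from 0) and ratios of 3 gene pairs in CPM per kb (log axes, dotted line at 1) in the 9 libraries, with 1 point per library and a bar for the mean of each group. Insig1 over Insig2 is below 1 with DMSO and above 1 in both treated groups, and Soat1 over Soat2 is above 1 with 4OI alone. Cell type markers also differed between the groups, and their part in these ratios was not tested.

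Within the groups, library 3 stood apart for part of the members. In both DMSO and Bobcat339, library 3 was the highest for 7 members (Hmgcs1, Idi1, Msmo1, Hsd17b7, Sc5d, Stard4 and Abca1), of which 6 rose with Bobcat339. It was the lowest in both for 13 members (Acat2, Mvk, Pmvk, Fdps, Fdft1, Lss, Tm7sf2, Nsdhl, Ebp, Srebf2, Scap, Tmem97 and Soat2), of which 4 rose. The other 9 members followed neither order, Sqle, Cyp51 and Insig1 among them. Library 3 also had the highest mitochondrial share of each of these groups, 5.59% with DMSO and 3.12% with Bobcat339, and its part in this order was not tested. The order was noticed after the values were seen. It was not counted over all genes tested, so the counts of 7 and 13 do not show that it is particular to the members. Leaving out DMSO replicate 3 or Bobcat339 replicate 3 left 14 members called higher and 2 called lower.

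Further genes of sterol metabolism were counted from 5 lists that do not hold the members. Of 10 genes of the sensing machinery, 1 rose and 2 fell with Bobcat339, where 20.7% of all genes tested were called. Erlin1, a membrane protein that helps degrade sterol enzymes, rose from 53.0 ± 6.63 to 110.0 ± 12.4 CPM (log2 fold change 1.05, SE 0.12, adjusted p = 0.000225), and Nr1h3, which encodes the LXR alpha receptor, fell from 45.2 ± 4.26 to 26.8 ± 1.43 CPM (log2 fold change -0.75, SE 0.093, adjusted p = 0.000337). With 4OI, where 63.7% of all genes were called, 4 rose and 2 fell. Nr1h3 was lower, from 45.2 ± 4.26 to 27.8 ± 0.776 CPM (log2 fold change -0.70, SE 0.093, adjusted p = 6.44e-05). Rxra, the partner of LXR, was higher, from 121 ± 10.5 to 180.2 ± 3.86 CPM (log2 fold change 0.57, SE 0.08, adjusted p = 8.64e-05). Nr1h2, which encodes the LXR beta receptor, rose with 4OI from 67.1 ± 6.75 to 93.8 ± 6.32 CPM (log2 fold change 0.48, SE 0.10, adjusted p = 0.00188). With Bobcat339 Nr1h2 fell (log2 fold change -0.45, SE 0.10, adjusted p = 0.011). Hepatocyte markers fell and macrophage and endothelial markers rose with 4OI. Their part in the changes of these genes was not tested.

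Of 11 genes of the isoprenoid branches that leave the pathway before squalene, 2 rose and 0 fell with Bobcat339, a share near the 20.7% of all genes called. These were Rabggtb, a subunit of the enzyme that prenylates Rab proteins, from 76.5 ± 1.40 to 113 ± 4.70 CPM (log2 fold change 0.56, SE 0.069, adjusted p = 0.000344), and Nus1, a subunit of the enzyme that makes dolichol, from 96.7 ± 13.9 to 137 ± 14.1 CPM (log2 fold change 0.50, SE 0.11, adjusted p = 0.00897). With 4OI, 3 rose and 6 fell, against 63.7% of all genes called. Ggps1, which makes geranylgeranyl diphosphate, rose from 11.4 ± 1.78 to 42.4 ± 0.635 CPM (log2 fold change 1.89, SE 0.14, adjusted p = 6.72e-07), opposite in direction to Fdps, the enzyme just before it, and Rabggtb fell from 76.5 ± 1.40 to 38.5 ± 1.55 CPM (log2 fold change -0.99, SE 0.07, adjusted p = 3.62e-07). Macrophage and endothelial markers rose with 4OI (medians 3.35 and 4.59) and hepatocyte markers fell (median -3.26). Their part in the changes of Ggps1 and Rabggtb was not tested.

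Uptake and transfer genes went both ways with Bobcat339, 2 of 10 higher and 2 lower, against 11.6% and 9.06% of all genes. The oxysterol-binding transfer proteins Osbpl2 and Osbp rose, Osbpl2 from 41.8 ± 2.03 to 76.5 ± 2.94 CPM (log2 fold change 0.87, SE 0.093, adjusted p = 0.000126) and Osbp from 81.2 ± 5.67 to 116 ± 5.08 CPM (log2 fold change 0.51, SE 0.076, adjusted p = 0.00102). With 4OI, 6 rose and 1 fell, against 33.3% and 30.4% of all genes. The lysosomal lipase Lipa, which frees cholesterol from esters, rose from 189.6 ± 2.49 to 1036 ± 16.0 CPM (log2 fold change 2.45, SE 0.064, adjusted p = 2.52e-10), and Gramd1b, a carrier of sterol from the plasma membrane, rose from 8.51 ± 0.996 to 32.7 ± 0.146 CPM (log2 fold change 1.94, SE 0.11, adjusted p = 7.36e-08). All 10 macrophage markers (median 3.35) and all 8 endothelial markers (median 4.59) rose with 4OI too. Their part in the rises of Lipa and Gramd1b was not tested.

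Among 7 LXR targets, 2 rose and 2 fell with Bobcat339, and 3 rose and 4 fell with 4OI. Of all genes, 20.7% were called with Bobcat339 and 63.7% with 4OI. Pltp, the phospholipid transfer protein, fell with Bobcat339 from 6.50 ± 1.5 to 2.67 ± 0.159 CPM (log2 fold change -1.29, SE 0.16, adjusted p = 0.000317) and rose with 4OI from 6.50 ± 1.5 to 74.4 ± 6.57 CPM (log2 fold change 3.52, SE 0.16, adjusted p = 1.05e-08). Smpdl3a, a secreted phosphodiesterase, moved the same ways, from 32.0 ± 1.18 to 23.9 ± 1.63 CPM (log2 fold change -0.42, SE 0.077, adjusted p = 0.00328) with Bobcat339 and from 32.0 ± 1.18 to 279 ± 13.1 CPM (log2 fold change 3.12, SE 0.083, adjusted p = 2.62e-10) with 4OI. The macrophage markers had medians of -2.30 and 3.35 in these comparisons, and their part in the changes of Pltp and Smpdl3a was not tested.

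Of 7 fatty acid genes controlled by SREBP1, 3 rose and 0 fell with Bobcat339, against 11.6% of all genes higher and 9.06% lower. Fasn, the fatty acid synthase, rose from 171 ± 20.7 to 301 ± 19.8 CPM (log2 fold change 0.81, SE 0.11, adjusted p = 0.000524) and Me1, the malic enzyme that supplies NADPH, rose from 357 ± 13.5 to 444 ± 25.1 CPM (log2 fold change 0.32, SE 0.071, adjusted p = 0.00991). With 4OI all 7 fell, Scd1, the stearoyl-CoA desaturase, the most clearly by its p-value, from 2819 ± 36.1 to 53.2 ± 1.12 CPM (log2 fold change -5.73, SE 0.081, adjusted p = 5.5e-11), and Me1 next, from 357 ± 13.5 to 60.3 ± 2.17 CPM (log2 fold change -2.56, SE 0.075, adjusted p = 4.59e-10). Of all genes, 30.4% were lower with 4OI. All 10 hepatocyte markers were lower as well (median -3.26), and their part in these falls was not tested. No gene of this list and none of the 18 enzymes fell with Bobcat339, where 9.06% of all genes were lower. For a list of 7 genes, 0 lower is near that share.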

How the data were processed

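The authors deposited 1 table of expected counts per gene, whole numbers with no scaling between libraries. The submitters' notes list featureCounts 1.5.0-p3, HISAT2 2.0.5 and CASAVA 1.8. A genome build, annotation or strand setting was not given in the sources used here. Between 43.7% and 45.6% of the values from 4 to 40 were multiples of 4, against 27.0% if spread evenly, so about 4 deposited counts were taken as 1 read pair. Symbols came from the gene identifiers (91.9% matched), and exon lengths and overlaps from GENCODE M21. The members and all lists were chosen with earlier results of these data known.

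Differences were tested in R 4.3.3 by the two-sided quasi-likelihood test of edgeR 4.0.16 after filterByExpr, with TMM scaling and a mean for each group fitted over the 9 libraries, with Benjamini-Hochberg adjustment over 18379 genes per comparison and a threshold of 0.05. The biological coefficient of variation was 0.24. Levels are CPM after TMM scaling, or CPM per kilobase of exon where genes are compared, and errors are the SD over 3 libraries or the SE of the fit. Ratios were compared by exact permutation (SciPy 1.17.1, Python 3.11.15), and figures were drawn with matplotlib 3.10.9. All 29 members are named. From each further list the 2 called genes with the smallest adjusted p in a comparison with DMSO are named. A few further genes are named where they moved otherwise than these. The method was tested on simulated counts. Alternatives were RLE scaling, library size only, DESeq2 1.42.0, a fit to the 6 libraries compared, a minimum of 1 CPM in 3 libraries, no filter, a replicate block, a 1.2-fold minimum, values divided by 4, and each library left out in turn.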

Additional observations from a re-analysis of the deposited data

How the results depend on the processing

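With the 18 alternatives, 12 to 16 members were called higher and 2 to 3 lower for Bobcat339 against DMSO, 3 to 4 higher and 23 to 24 lower for 4OI against DMSO, and 3 higher and 22 to 24 lower for 4OI against Bobcat339. The number of all genes called for Bobcat339 against DMSO, 3802, was 1974 with a 1.2-fold minimum and ran from 2426 (without DMSO replicate 1) to 4115 (without Bobcat339 replicate 1) with 1 library left out, and was 2485 without Bobcat339 replicate 2. With DESeq2 it was 4763, the most of any alternative.

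Changes of sign were limited to members that were not called. For Bobcat339 against DMSO the log2 fold change of Pmvk was -0.041 with RLE scaling, -0.013 with library size only and -0.041 with DESeq2, and ran from -0.080 to 0.17 with 1 library left out. For Tm7sf2 the values were -0.041, -0.013 and -0.041, with a range from -0.087 to 0.14. Ebp was at 0.0051 with no filter and ranged from -0.097 to 0.093. For 4OI against DMSO Abca1 was at -0.023 with no filter and -0.0052 with only the 6 libraries compared. Over all members and alternatives, 17 of 1566 values changed sign, 17 were no longer called, 9 became called and 1523 did neither.

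The labels of the groups share replicate numbers 1 to 3. Deviations of same-numbered DMSO and Bobcat339 libraries correlated at 0.0415, 0.0113 and 0.0967 across genes, those of DMSO and 4OI at -0.00331, -0.017 and -0.0239, and those of Bobcat339 and 4OI at 0.0712, -0.0269 and 0.0878. No same-numbered pair was above 0.1 and not every library correlated best with its own number. The value for replicate 3 of DMSO and Bobcat339, 0.0967, was the highest between any libraries of these groups. The labels give only a shared number, and correlations this small cannot tell whether same-numbered libraries shared a preparation. With the replicate block 4080 genes were called for Bobcat339 against DMSO, with 16 members higher and 2 lower, Nsdhl (adjusted p = 0.0415) and Fdps (0.0347) being the added ones. The block left 4 members higher and 24 lower for 4OI against DMSO, and 3 and 23 for 4OI against Bobcat339. If about 4 deposited counts stand for 1 read pair, the lowest members, Mylip and Abcg1 with Bobcat339, rest on few read pairs.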
